A study of Komagataella pastoris with 6 samples.

Results

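GTH1 (PAS_chr1-3_0011) is the high-affinity glucose transporter of Pichia pastoris and HXT1 (PAS_chr1-4_0570) its low-affinity hexose transporter. These 2 genes, picked by identifier, are among 5040 genes in the table of read counts. The RNA came from the flocculating strain KM71-ScFlo1-LpDLDH (3 cultures) and its non-flocculating control KM71-LpDLDH (3 cultures). Both strains derive from KM71, a laboratory strain that requires histidine and carries a disrupted AOX1 gene. Both also express LpDLDH, the d-lactate dehydrogenase of Leuconostoc pseudomesenteroides, from the constitutive GAP promoter. KM71-ScFlo1-LpDLDH additionally expresses the Saccharomyces cerevisiae flocculation gene ScFLO1 from the same promoter, on a plasmid with a HIS4 marker. ScFLO1 itself, its plasmid, the marker and anything else in which the isolates differ cannot be told apart. Growth was in MGYH, which is minimal medium supplying glycerol as the carbon source together with histidine, from a starting OD600 of 0.05. The cells were harvested after about 21 h at 30 °C and 250 rpm.

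Yeasts take up hexoses by facilitated diffusion through permeases of the major facilitator superfamily. High-affinity carriers are typically made when sugar is scarce, and low-affinity carriers when it is plentiful. In P. pastoris, GTH1 is known as a gene that is repressed in excess glycerol or glucose and induced when the carbon supply runs low, which is why its promoter is used in methanol-free, carbon-limited protein production. HXT1 is the main low-affinity glucose carrier of this yeast. Glycerol enters the cell by other transporters, and MGYH contains no hexose, so the levels below describe the state of these genes without their substrate in the medium. The comparison asks whether the high-affinity and the low-affinity gene differed between the flocculating strain and its control in mid-exponential growth on glycerol.

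The libraries held between 10386352 and 12767753 reads on genes. Each pair of replicates differed by more than counting noise (chi-square per degree of freedom of at least 11.9), so all 6 were kept as separate samples. In KM71-ScFlo1-LpDLDH this value was 11.9 for replicates 1 and 2, 31.0 for 2 and 3, and 68.1 for 1 and 3. The pairs of KM71-LpDLDH lay between 16.1 and 20.1. Replicates 1 and 3 of the flocculating strain were thus the least alike over all tested genes. The methods describe triplicate cultures. Levels are given as CPM, the reads of a gene scaled to a common library size with edgeR's TMM factors, a scaling that leaves out the genes that differ most. The strains differed broadly. By edgeR's quasi-likelihood test, 64.2% of the 5029 tested genes had a Benjamini-Hochberg adjusted p under 0.05. Of the tested genes, 16.4% (825 genes) also passed a fold change of 2, the thresholds of the study. With DESeq2, the tool that the study used, 816 genes passed both. The study itself reports far fewer genes at these thresholds, and the reason for the gap was not tested.

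GTH1 was 1.94-fold higher in KM71-ScFlo1-LpDLDH than in KM71-LpDLDH, while HXT1, at 0.920-fold, did not pass the test. Of the 2 genes, 1 (GTH1) had an adjusted p under 0.05, and 32.6% of all tested genes did so in that direction, so a rise of this kind was common between these strains. A higher level past both thresholds was found for 8.41% of the tested genes and for 0 of the 2 transporters.

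GTH1 had 71.7, 80.7 and 97.3 CPM in replicates 1, 2 and 3 of KM71-ScFlo1-LpDLDH, against 45.7, 39.5 and 43.3 CPM in replicates 1, 2 and 3 of KM71-LpDLDH. Every culture of the flocculating strain lay above every control culture, and 26.1 CPM separated the lowest flocculating culture from the highest control. Of all tested genes, 35.3% were likewise higher in each KM71-ScFlo1-LpDLDH library than in each KM71-LpDLDH library. The means were 83.3 ± 13.0 CPM in KM71-ScFlo1-LpDLDH and 42.9 ± 3.10 CPM in KM71-LpDLDH (SD, n = 3 each). The edgeR test gave a log2 fold change of 0.96 with an adjusted p of 8.11e-05 over all tested genes. The standard error, computed apart from that fit from the log2 CPM of the cultures, was 0.14. limma gave a 95% interval from 0.68 to 1.22 on the log2 scale, which spans the cut-off of 1. The RNA was pooled over all cells of a culture, so a rise of GTH1 in some of the cells and a smaller rise in every cell cannot be told apart.

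The GTH1 counts ranged from 935 to 1005 reads in KM71-ScFlo1-LpDLDH and from 501 to 532 reads in KM71-LpDLDH. Counting alone gives a coefficient of variation of at most 4.47% at this depth. The cultures varied more than that, by 15.6% in KM71-ScFlo1-LpDLDH and 7.24% in KM71-LpDLDH. Replicate 3 of KM71-ScFlo1-LpDLDH was the highest and replicate 1 the lowest of that strain. Without replicate 3 the log2 fold change was 0.83, and without replicate 1 it was 1.05, past the cut-off. It also passed the cut-off without replicate 1 of KM71-LpDLDH (1.003) and with total-count scaling (1.06). For GTH1 alone, the exact permutation test (two-sided) gave p = 0.1, which is the smallest value that 3 cultures per strain allow.

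HXT1, the low-affinity carrier, had 5231, 6045 and 6161 CPM in replicates 1, 2 and 3 of KM71-ScFlo1-LpDLDH, against 6332, 5924 and 6689 CPM in replicates 1, 2 and 3 of KM71-LpDLDH. The strains overlapped, since replicate 2 of the control lay below replicates 2 and 3 of the flocculating strain. The means were 5812 ± 507 CPM in KM71-ScFlo1-LpDLDH and 6315 ± 383 CPM in KM71-LpDLDH (SD, n = 3 each). The log2 fold change was -0.12 (standard error 0.09), with an adjusted p of 0.407 from the same edgeR test. The 95% interval from limma ran from -0.44 to 0.19 on the log2 scale, that is, from 0.739-fold to 1.14-fold. A change of 2-fold in either direction lies outside this interval, and smaller differences are not excluded by it.

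**Figure D1:**
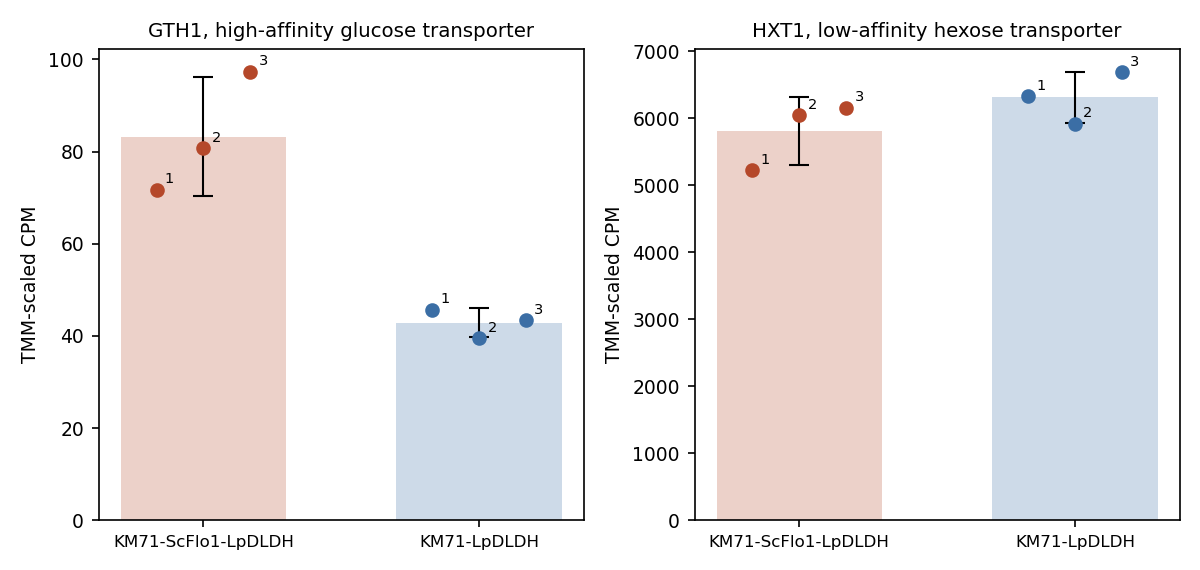
Levels of GTH1 (left panel) and HXT1 (right panel) in TMM-scaled CPM, with 1 point per culture labelled by its replicate number, bars for the means and error bars for the SD (n = 3). The 3 KM71-ScFlo1-LpDLDH cultures sit at 71.7 to 97.3 CPM for GTH1, above the 39.5 to 45.7 CPM of KM71-LpDLDH, whereas the HXT1 points of the strains overlap.

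HXT1 RNA was abundant although no hexose was supplied. It took between 0.562% and 0.631% of all gene reads in the KM71-ScFlo1-LpDLDH libraries and between 0.588% and 0.629% in the KM71-LpDLDH libraries. The 95% exact binomial interval of the lowest of these shares, that of replicate 1 of KM71-ScFlo1-LpDLDH, ran from 0.558% to 0.566% and covers counting error only. GTH1 took between 0.00771% and 0.00968% of the reads in KM71-ScFlo1-LpDLDH and between 0.00392% and 0.00439% in KM71-LpDLDH. Transcript lengths were not analysed here, so the read levels of the 2 genes are not set against each other as RNA amounts.

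The ratio of the 2 genes within a library needs no scaling between libraries, and its change between strains does not depend on transcript length. For each 1000 reads of HXT1 there were 13.7, 13.3 and 15.8 reads of GTH1 in replicates 1, 2 and 3 of KM71-ScFlo1-LpDLDH, against 7.22, 6.68 and 6.48 in replicates 1, 2 and 3 of KM71-LpDLDH. The ratio was higher in every flocculating culture than in every control culture, and its spread within a strain was small beside the gap. By CPM, 35.3% of all tested genes were likewise higher in every flocculating library, and the ratios of other genes to HXT1 were not computed. The means were 14.3 ± 1.32 in KM71-ScFlo1-LpDLDH and 6.79 ± 0.381 in KM71-LpDLDH (SD, n = 3 each). On the log2 scale the strains differed by 1.07 (standard error 0.09), which is a 2.10-fold shift toward the high-affinity gene. This shift joins the log2 fold changes given above, 0.96 for GTH1 and -0.12 for HXT1, and is no separate result. The two-sided exact permutation test over the 6 libraries gave p = 0.1, again the smallest possible with 3 against 3.

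**Figure D2:**
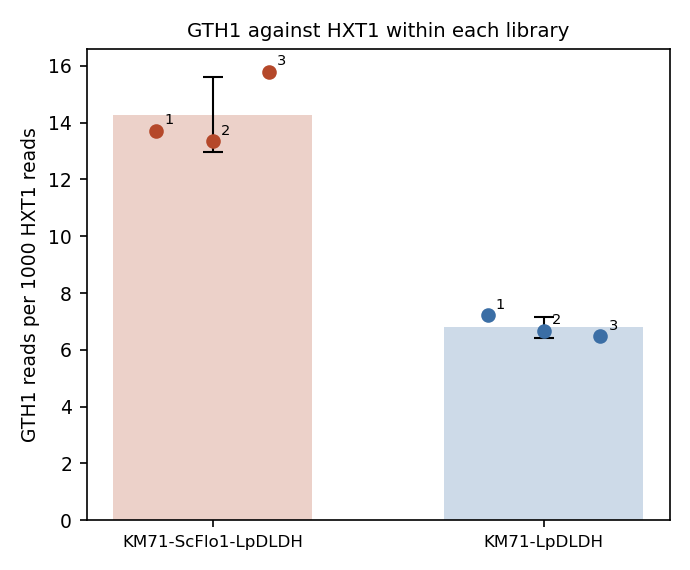
Reads of GTH1 for each 1000 reads of HXT1 in the same library, with 1 point per culture labelled by its replicate number, bars for the means and error bars for the SD (n = 3). KM71-ScFlo1-LpDLDH lies between 13.3 and 15.8 and KM71-LpDLDH between 6.48 and 7.22.

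Against all tested genes, GTH1 was toward the upper end of the changes and HXT1 near the middle. A higher log2 fold change than that of GTH1 was found for 457 genes, or 9.09% of those tested. For HXT1, 83.3% of the tested genes had a fold change that was larger in size. Over all tested genes the median was 0.02, and relative to it GTH1 stood at 0.93 and HXT1 at -0.14. With total-count scaling the median moved to 0.13, and relative to that GTH1 was at 0.93 and HXT1 at -0.15. Scaling moves all genes by nearly the same amount, so these distances could hardly change. Ranked by mean log2 CPM, the tenth of genes that holds GTH1 had a median log2 fold change of 0.08, and 29 of its 503 genes had a higher value than GTH1. In the tenth with the most reads, which holds HXT1, 63 of 503 genes changed by no more than HXT1 in size, and 51 rose and 84 fell past both thresholds.

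**Figure D3:**
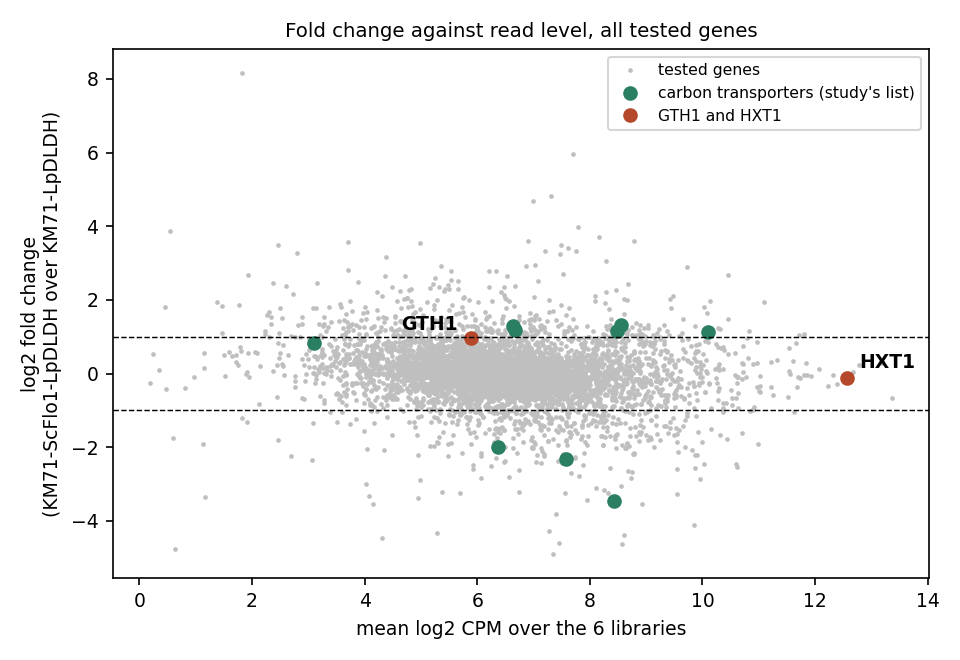
Log2 fold change (KM71-ScFlo1-LpDLDH over KM71-LpDLDH) against the mean log2 CPM over the 6 libraries for the 5029 tested genes (grey). GTH1 and HXT1 are in red, and the carbon transporters, grouped here from the genes that the study selected, are in green. Dashed lines mark a fold change of 2 in either direction, with GTH1 just below the upper line at 0.96 and HXT1 near 0 at the far right.

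Other transporters of carbon compounds were taken from the genes that the study selected on these same libraries, so their changes are no independent evidence. The list holds 9 genes, namely the homologs of the S. cerevisiae genes JEN1 (lactate permease), ADY2 (acetate permease) and FPS1 (glycerol channel), a further acetate transporter, and 3 relatives of monocarboxylate permeases homologous to ESBP6. This grouping was made here. The study places the ESBP6 homologs under cell wall rigidity, and PAS_chr2-1_0309 under transporters as well. By the edgeR test 6 of the 9 rose and 3 fell at an adjusted p under 0.05, and 5 rose and 3 fell past the fold change cut-off as well. Among all tested genes, 31.5% fell at an adjusted p under 0.05, and 7.99% fell past both thresholds. Their median log2 fold change was 1.13, against 0.02 over all tested genes. GTH1, at 0.96, lay between 2 ADY2 homologs, PAS_chr1-1_0418 at 0.83 and PAS_chr1-1_0378 at 1.13. The FPS1 homolog PAS_chr4_0784 had 533 ± 16.7 CPM in KM71-ScFlo1-LpDLDH and 241 ± 40.3 CPM in KM71-LpDLDH (SD, n = 3 each), a log2 fold change of 1.15.

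The study's selection of transporters, which was made on these libraries, holds another pair of carriers named by affinity, for zinc. Both of those rose, with log2 fold changes of 4.82 for the high-affinity gene PAS_chr3_0516 and 2.67 for the low-affinity gene PAS_chr4_0516. In the glucose pair only the high-affinity gene passed the test. Whether the zinc and glucose pairs differ was not tested.

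**Figure D4:**
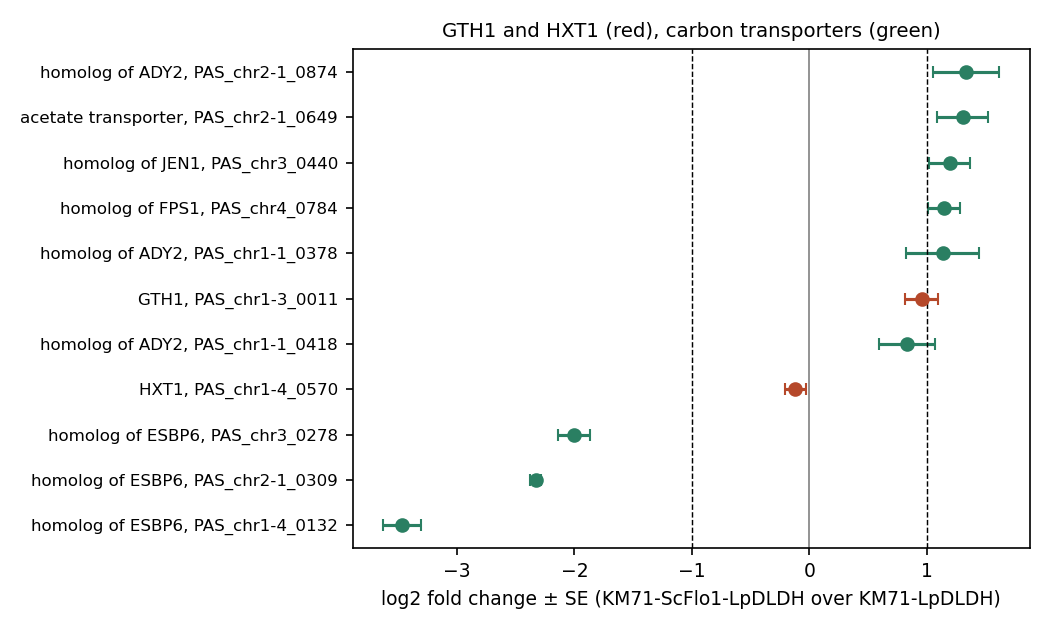
Log2 fold changes (KM71-ScFlo1-LpDLDH over KM71-LpDLDH) with their standard errors for GTH1 and HXT1 (red) and the 9 carbon transporters grouped here from the genes that the study selected (green). GTH1 at 0.96 falls among the rising transporters, HXT1 is at -0.12, and the 3 ESBP6 homologs are lowest.

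Genes numbered next to each transporter were examined because the use of strand in counting is not stated. For GTH1, the identifier number before it belonged to a gene with 63.4 ± 12.6 CPM in KM71-ScFlo1-LpDLDH and 37.2 ± 6.90 CPM in KM71-LpDLDH (SD, n = 3 each), a log2 fold change of 0.77 (adjusted p of 0.00268 by the edgeR test). The number directly after GTH1 had no row, and the next one belonged to a gene with a log2 fold change of 0.78. Both numbered neighbours of GTH1 in the table thus rose, as did 32.6% of all tested genes at an adjusted p under 0.05. For each 100 reads of GTH1, the gene before it had 75.9 reads in KM71-ScFlo1-LpDLDH and 86.5 in KM71-LpDLDH, and the gene after it had 153 reads in KM71-ScFlo1-LpDLDH and 170 in KM71-LpDLDH, so their reads were of the same order as those of GTH1. Gene positions and orientations were not analysed here, and whether reads of a neighbour were counted on GTH1 was not tested.

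Around HXT1 the numbered neighbours went in both directions. The gene before it had 977 ± 49.6 CPM in KM71-ScFlo1-LpDLDH and 475 ± 56.7 CPM in KM71-LpDLDH (SD, n = 3 each), a log2 fold change of 1.04. The gene after it had 232 ± 14.8 CPM in KM71-ScFlo1-LpDLDH and 366 ± 104 CPM in KM71-LpDLDH (SD, n = 3 each), a log2 fold change of -0.66. The genes at the next numbers outward had log2 fold changes of 0.81 before HXT1 and -1.91 after it. These 4 neighbours passed an adjusted p of 0.05, and HXT1, with far more reads than any of them, did not. Of all tested genes, 64.2% passed it in either direction, so such calls were common anywhere. The gene directly before HXT1 had the most reads of the 4, at 17.0 for each 100 reads of HXT1 in KM71-ScFlo1-LpDLDH and 7.56 in KM71-LpDLDH.

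Likeness to the other genes was measured as the root mean square difference of log2 CPM over the 6 libraries, after each gene was centred on its own mean. The profile most like that of GTH1 was that of PAS_chr3_0966, with a root mean square difference of 0.06 and 357 ± 43.5 CPM in KM71-ScFlo1-LpDLDH against 178 ± 10.1 CPM in KM71-LpDLDH (SD, n = 3 each). PAS_chr4_0009 followed at 0.08. Of the other 5028 genes, 19 lay within 0.1 of GTH1. HXT1 had 230 genes within 0.1, the nearest being PAS_chr4_0457 at 0.02 and PAS_chr4_0431 at 0.03, neither of which passed the test between strains. Both were picked for likeness to HXT1 on these same libraries, so their not passing follows largely from that choice. No source used here names these 4 identifiers, and the likeness rests on 6 libraries.

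In the 10 processing alternatives and the 6 fits that each left out 1 library, GTH1 was higher in KM71-ScFlo1-LpDLDH each time, at log2 fold changes from 0.83 to 1.06. Because every flocculating culture lay above every control culture, leaving out 1 library could not reverse that direction. The fitted change of HXT1 ranged from -0.17 to -0.02 and passed the adjusted p in none of these 16 fits. Against a null hypothesis of a fold change of at most 2, tested with glmTreat of edgeR, GTH1 had an adjusted p of 1. That test, counted among the 16, keeps the log2 fold change of the main fit (0.96). This value is below the cut-off, so glmTreat could not have called GTH1. The same holds for HXT1, at -0.12. The fits with a prior count of 0.5 or 5 kept the adjusted p of the main fit for both genes, so they are no separate tests.

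**Figure D5:**
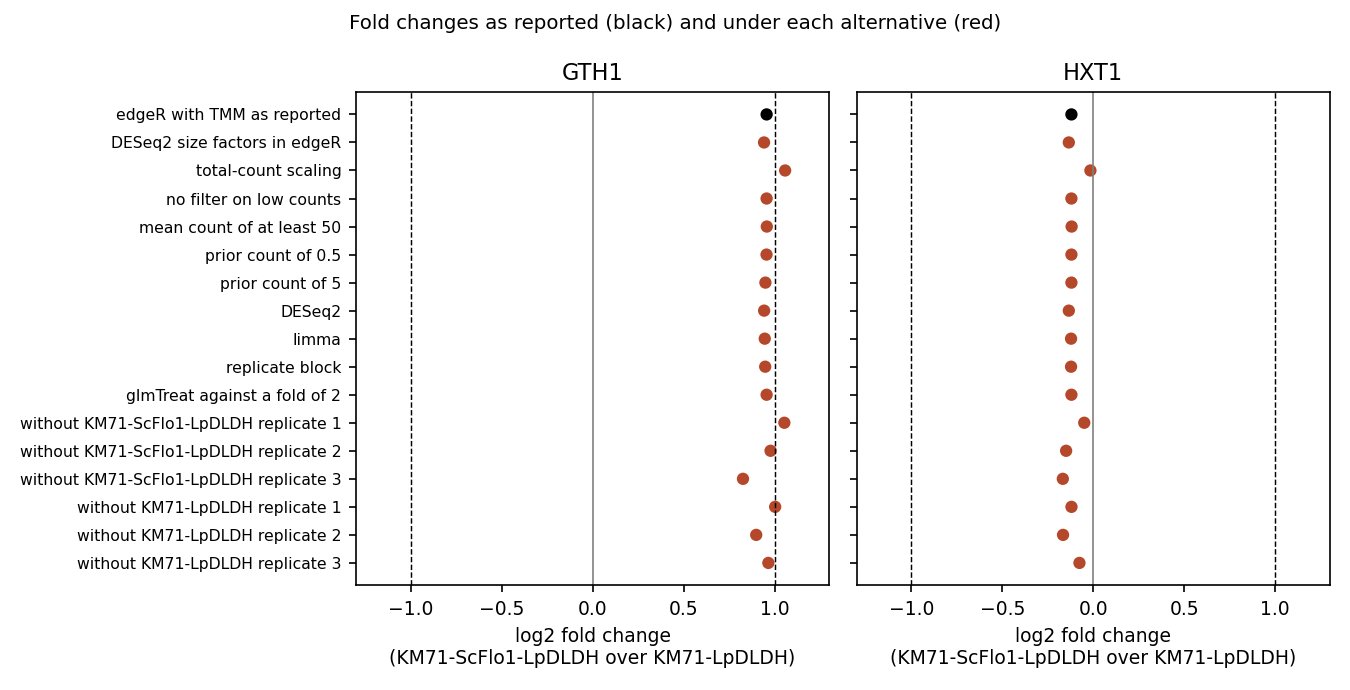
Log2 fold changes (KM71-ScFlo1-LpDLDH over KM71-LpDLDH) of GTH1 (left panel) and HXT1 (right panel) as reported (black) and under each of the 16 alternatives (red), with dashed lines at a fold change of 2. GTH1 stays between 0.83 and 1.06, on either side of the cut-off of 1, and HXT1 between -0.17 and -0.02.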

How the data were processed

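Triplicate cultures of each strain were sequenced. According to the methods, reads were trimmed (fastp), aligned to the genome of P. pastoris GS115 (HISAT2) and assigned to genes (HTSeq-count). Neither versions nor the strand setting are stated. The data deposited by the authors are read counts, as whole numbers, for each gene. The table's name calls them normalized, but the values are whole and library totals differ, so they were treated as raw counts, and 0 columns belonged to no sample.

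The test covered 5029 genes averaging at least 10 reads (11 were left out) and used edgeR 4.0.16 under R 4.3.3 (TMM, prior count 0.125, quasi-likelihood test, Benjamini-Hochberg adjustment over all tested genes), without a replicate block. DESeq2 1.42.0, limma 3.58.1 and glmTreat were alternatives. The tools were tested on simulated data. Standard errors and profiles used log2 CPM with a prior count of 2, and the ratio of reads used 0.5 added reads. The members and lists were chosen with earlier results of these data known. The named genes are both transporters, their neighbours within 2 identifier numbers, the transporters the study lists, and the 2 closest profiles of each. A reference gene table for another assembly matched 0 identifiers, so no sequence, length or position was used.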

Additional observations from a re-analysis of the deposited data

How the results depend on the processing

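The number of genes past both thresholds was 825, between 794 and 886 when 1 library at a time was left out, and 485 with glmTreat, which by construction asks for more than a fold change of 2. The other 9 alternatives gave between 808 and 862. With glmTreat GTH1 kept its log2 fold change of 0.96 and was not past the threshold (adjusted p of 1). Its adjusted p stayed at or below 0.000956 in the remaining fits. Leaving out each library in turn gave 0.83 to 1.05 for GTH1, -0.17 to -0.05 for HXT1 and 0.996 to 1.12 for the difference in the log2 ratio, and adding 1 read in place of 0.5 gave 1.07. The replicate numbers did not pair the samples: the correlations of same-numbered deviations from the strain means were -0.13, 0.05 and 0.11, none of them above the highest correlation between different numbers. With the replicate number as a block, 829 genes were called, the log2 fold change was 0.95 for GTH1 (adjusted p of 0.000339 by edgeR) and -0.12 for HXT1 (adjusted p of 0.455), and the ratio differed by 0.93 to 1.28 within the 3 numbers, with a mean of 1.07. Counting error at the lowest read count came to 4.47% for GTH1 and 0.396% for HXT1, beside a spread between cultures of 15.6% in KM71-ScFlo1-LpDLDH and 7.24% in KM71-LpDLDH for GTH1, and of 8.72% in KM71-ScFlo1-LpDLDH and 6.06% in KM71-LpDLDH for HXT1.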
